A study of Mus musculus with 20 samples.

Results

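The core circadian clock of mouse liver was followed through its 10 best known transcripts in livers that differed in Pck1 genotype and in diet. The genes were chosen by symbol, for their place in the clock: the activators Arntl, Clock and Npas2, the repressors Per1, Per2, Per3, Cry1 and Cry2, and the nuclear receptors Nr1d1 and Nr1d2. All 10 were found among the 46095 gene symbols of the count table, and all 10 passed the filter on low counts, which left 14440 genes for testing. RNA sequencing had been carried out on livers of 20 mice, 5 in each of 4 groups: WT and Pck1-cKO mice (KO in what follows), each fed chow or a NASH diet, which brings on non-alcoholic steatohepatitis, for 24 weeks. All mice were 31 to 33 weeks old. Pck1 encodes the cytosolic phosphoenolpyruvate carboxykinase of gluconeogenesis, and the series was set up to examine its role in diet-induced steatohepatitis. Neither the strain, nor the promoter that drives the deletion, the make-up of the diet or the hour at which livers were taken is given in the sources used here. The libraries of a group come from separately numbered mice.

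The clock is a transcriptional feedback loop that runs in nearly every cell with a period of about a day. ARNTL (also called BMAL1) pairs with CLOCK, or with its paralogue NPAS2, binds E-box sequences and activates the Per, Cry and Nr1d genes. PER and CRY proteins return to the nucleus and inhibit the activator pair, while NR1D1 and NR1D2 (REV-ERBα and REV-ERBβ) compete with the ROR receptors at ROR elements, through which they repress Arntl, Npas2 and other genes. In liver the transcripts of the loop therefore peak at different phases of the day, and feeding times and glucocorticoids are known to set those phases.

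Promoter sequence was looked up because the genes of the loop act on one another's promoters. RefSeq windows (GRCm38.p6) of 250 bases before and 50 from a transcription start on were found for 9 of the 10 genes, 13 windows in all, with none for Per2. They were searched on both strands for the E-box CACGTG, the noncanonical E-box CACGTT, the core of the ROR element (TAGGTCA or TGGGTCA) and the D-box (TTATGTAA or TTACGTAA), the site of DBP, TEF, HLF and NFIL3. The windows below belong to the genes on which the results turn, are written 5′ to 3′ along the gene's strand, and carry matches in capitals.
Arntl, chr7:113207261-113207560, plus strand: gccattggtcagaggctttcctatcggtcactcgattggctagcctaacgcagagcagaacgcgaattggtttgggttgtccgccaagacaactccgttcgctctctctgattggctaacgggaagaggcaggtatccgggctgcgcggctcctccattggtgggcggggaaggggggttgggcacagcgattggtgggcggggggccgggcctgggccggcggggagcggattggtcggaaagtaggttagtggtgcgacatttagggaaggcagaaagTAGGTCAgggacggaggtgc
Npas2, chr1:39194022-39194321, plus strand: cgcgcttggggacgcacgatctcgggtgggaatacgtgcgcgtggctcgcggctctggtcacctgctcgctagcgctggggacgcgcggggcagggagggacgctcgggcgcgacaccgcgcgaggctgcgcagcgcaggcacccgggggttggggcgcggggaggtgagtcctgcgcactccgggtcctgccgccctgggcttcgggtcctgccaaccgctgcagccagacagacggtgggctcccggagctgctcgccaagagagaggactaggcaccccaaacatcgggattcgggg
Cry1, chr10:85185005-85185304, minus strand: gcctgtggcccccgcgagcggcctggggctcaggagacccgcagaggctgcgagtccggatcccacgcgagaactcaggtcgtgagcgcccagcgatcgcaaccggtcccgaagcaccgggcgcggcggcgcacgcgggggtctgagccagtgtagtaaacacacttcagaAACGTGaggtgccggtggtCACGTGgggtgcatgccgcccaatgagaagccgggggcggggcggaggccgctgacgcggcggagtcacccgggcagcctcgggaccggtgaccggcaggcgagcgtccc
Per3, chr4:151044616-151044915, minus strand: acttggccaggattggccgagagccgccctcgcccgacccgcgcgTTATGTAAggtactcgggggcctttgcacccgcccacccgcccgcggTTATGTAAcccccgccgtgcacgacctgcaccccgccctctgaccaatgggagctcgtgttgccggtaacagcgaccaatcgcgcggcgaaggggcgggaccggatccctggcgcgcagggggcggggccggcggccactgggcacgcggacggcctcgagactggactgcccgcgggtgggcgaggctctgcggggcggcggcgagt
Nr1d1, chr11:98775328-98775627, minus strand: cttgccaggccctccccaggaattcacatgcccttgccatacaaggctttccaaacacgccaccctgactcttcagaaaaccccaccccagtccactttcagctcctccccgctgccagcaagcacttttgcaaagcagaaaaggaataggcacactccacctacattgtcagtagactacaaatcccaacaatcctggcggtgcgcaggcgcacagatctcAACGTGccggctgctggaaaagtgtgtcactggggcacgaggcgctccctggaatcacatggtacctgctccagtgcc
Positions count from 1 at the first transcribed base. The second of 2 Arntl windows held TAGGTCA at 31. The Npas2 window held no match. Cry1 held CACGTG at -60 and, on the other strand, CACGTT (read AACGTG here) at -79. Per3 held TTATGTAA at -205 and at -158, and Nr1d1 held CACGTT on the other strand at -28. Per1 (CACGTG at -166) and Cry2 (CACGTT on the other strand, at -166) also had a match, and the motifs did not overlap one another. Of all 32851 windows in the table, 7.15% held CACGTG, 4.68% CACGTT, 6.45% a ROR element core and 1.06% a D-box, so a match in a single window is a description and not evidence of a bound site.

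The libraries held 9958935 to 20601955 counts. Values are given as CPM, counts scaled to TMM library sizes, so that 1 CPM stood for 6.80 to 24.9 reads. The genotype labels were checked on Pck1, which was lower in KO on chow (626 against 3573 CPM, log2 fold change -2.51, edgeR adjusted p = 0.00011) and on the NASH diet (445 against 2290 CPM, -2.36, edgeR adjusted p = 6.13e-05). Sex is not among the labels. Counts of 4 Y-linked genes gave 13 males and 7 females. The females were WT NASH replicates 1, 2, 3 and 5, KO chow replicates 3 and 5, and KO NASH replicate 2. Transcript length was related to expression unequally: the slope of relative expression on length was -0.34 to -0.25 in 6 libraries (WT chow replicates 3, 4 and 5, WT NASH replicate 4, KO chow replicates 4 and 5; "steep" in what follows) and 0.01 to 0.19 in the other 14 ("flat"). All WT chow livers were male, and the only WT NASH male, replicate 4, was also the only steep WT NASH library. Among flat libraries the WT chow livers were thus all male and the WT NASH livers all female. Fits over flat libraries therefore cannot tell diet from sex in WT. KO NASH held 4 males and 1 female, all flat. Genotype was thus nearly aligned with sex on the NASH diet, also in fits over flat libraries. Results that these features moved with are given with and without them. KO NASH replicates 1 and 5 were the most alike of the 40 pairs within groups, with a mean chi-square per gene of 7.83 (20.5 in the next pair), and were kept as separate mice because they differed beyond sampling noise. Summed hepatocyte markers (Alb, Apoa1, Ttr, Serpina1c, Cps1) were at 44804 to 116472 CPM over all libraries.

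On GRCm38 the genes lie apart: Arntl (chr7:113207465-113314126, plus strand), Npas2 (chr1:39193731-39363236, plus) and Clock (chr5:76209868-76304792, minus) for the activators, Per3 (chr4:151003652-151044665, minus) and Nr1d1 (chr11:98767932-98775333, minus) among the repressors. Levels between genes were compared per length, as CPM per kilobase of annotated exons. In WT chow the order of the group means was Nr1d2 (21.3 CPM per kilobase), Nr1d1 (12.0), Per1 (4.73), Cry2 (4.33), Clock (3.99), Per2 (3.84), Cry1 (2.16), Per3 (0.467), Arntl (0.387) and Npas2 (0.0501). From Per1 to Per2, each gene differed from the next in that order by less than the SD of either, and so did Per3 and Arntl. The SD of Nr1d1, 9.49 CPM per kilobase, was larger than its distance to Nr1d2 or to Per1. In WT NASH the order began with Nr1d1 (25.3 ± 7.04, SD, n = 5) and Nr1d2 (16.4 ± 4.82) and ended with Npas2 (0.968 ± 0.724) and Per3 (0.133 ± 0.126), with Arntl at 2.61 ± 0.958 between Cry1 (2.30 ± 0.704) and Per2 (2.95 ± 1.42), closer to each than their SDs; Per1 (5.36), Clock (5.34) and Cry2 (3.63) lay between Per2 and the nuclear receptors. In KO chow the means ran from Nr1d2 (16.6) and Nr1d1 (8.00) through Cry2 (3.91), Clock (3.48), Per2 (3.00), Per1 (2.84) and Cry1 (2.59) to Per3 (0.572), Arntl (0.451) and Npas2 (0.0674). In KO NASH they ran from Nr1d1 (20.8) and Nr1d2 (17.1) through Per1 (5.67), Cry2 (5.22), Per2 (4.73), Clock (4.04) and Cry1 (1.99) to Arntl (0.973), Per3 (0.407) and Npas2 (0.278). Npas2 was thus last in 3 of the 4 groups and Per3 in WT NASH.

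**Figure D1:**
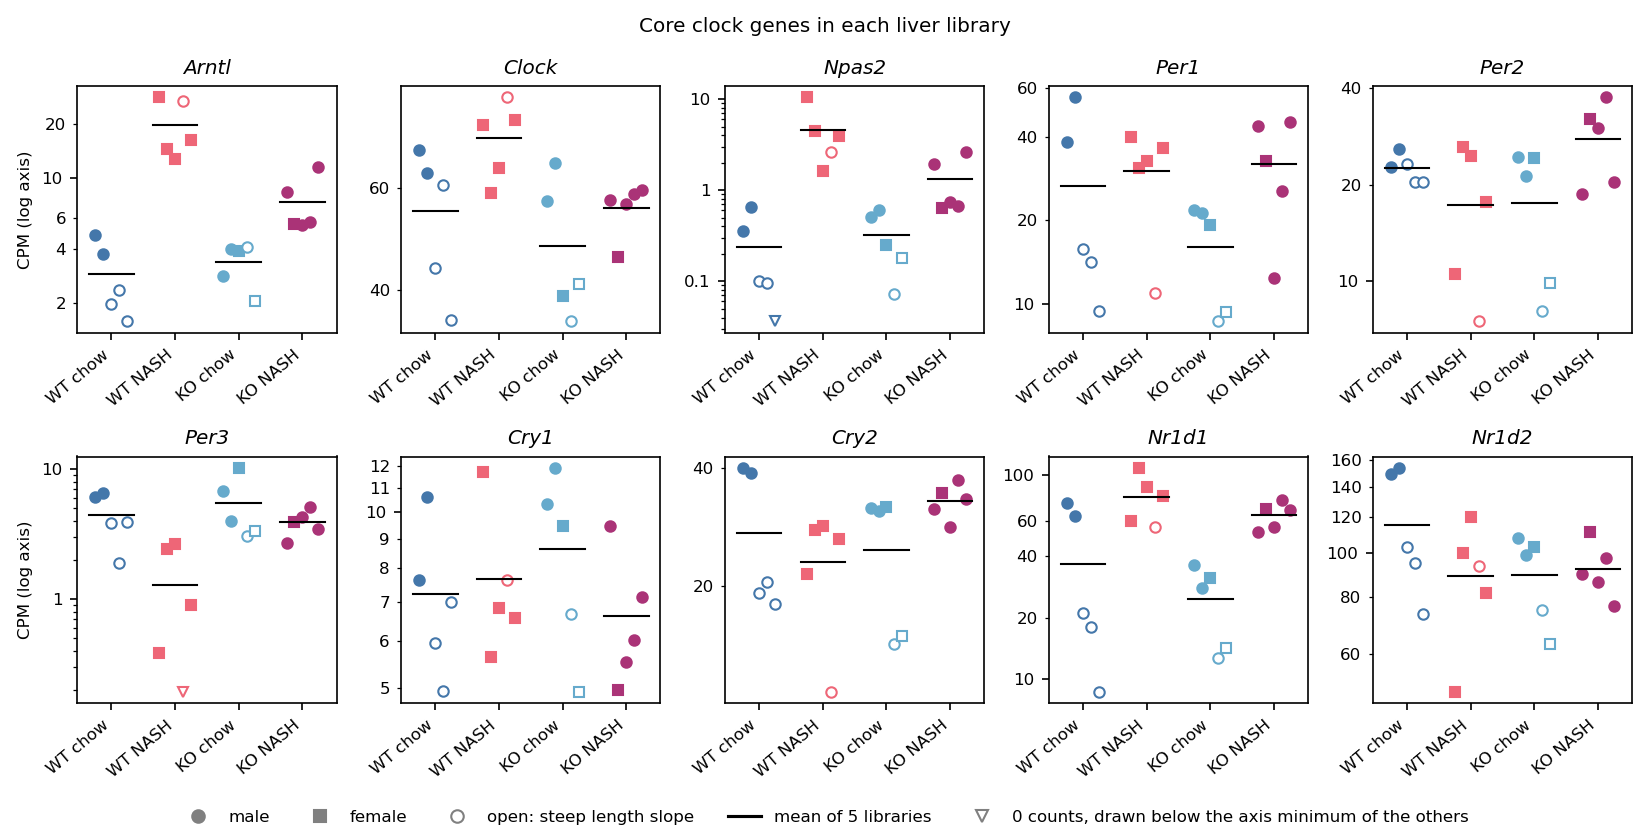
Level of each core clock gene in each of the 20 livers, in CPM on a log axis; circles are males, squares females, open symbols libraries with a steep length slope, and bars the mean of 5 libraries. All 5 WT NASH livers lie above all 5 WT chow livers in Arntl and Npas2, and in Nr1d1 the 3 open WT chow symbols (8.66 to 21.0 CPM) lie far below the 2 filled ones (63.3 and 73.2 CPM).

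The first comparison set WT livers on the NASH diet against WT livers on chow. Arntl and Npas2, both activators, were higher on the NASH diet, Arntl by 6.67-fold and Npas2 by 17.7-fold. Their partner Clock, the 5 repressors and both nuclear receptors did not pass the test. Thus 2 of 10 core clock genes were called higher and none lower by edgeR, against 2.69% and 3.24% of all genes tested. The median log2 fold change of the 10 genes was 0.13, and that of all genes 0.01. In whole liver, a change in the number of cells of a type and a change in RNA per cell cannot be told apart. The hour at which livers were taken is not given. A difference in that hour between groups cannot be told apart from diet or genotype, here or in the comparisons below. All WT chow livers were male and only 1 WT NASH liver was, so sex was largely aligned with diet as well.

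Arntl, the obligate partner of CLOCK and NPAS2, was at 4.80, 3.79, 1.99, 2.37 and 1.59 CPM in WT chow replicates 1 to 5. In WT NASH it was at 28.1, 14.4, 12.8, 26.8 and 16.3 CPM. The lowest NASH liver stood above the highest chow liver, as it did in 2.90% of all genes tested (the reverse held in 3.25%). The fitted log2 difference was 2.74 (SE 0.337), with an edgeR adjusted p of 9.4e-05 and an interval of 2 SE from 2.06 to 3.41. The single WT NASH male, at 26.8 CPM, lay within the range of the 4 females, 12.8 to 28.1 CPM. That male was also the only steep WT NASH library, so sex and slope cannot be told apart within WT NASH. Among the 6 flat libraries of these groups the ranges were 3.79 to 4.80 CPM on chow and 12.8 to 28.1 CPM on the NASH diet, and the log2 fold change over flat libraries was 2.07 (edgeR adjusted p = 0.00781). These chow livers were male and these NASH livers female. In males alone the log2 fold change was 3.16 (1 WT NASH library, a steep one), and with sex and the slope as terms 3.02 (edgeR adjusted p = 4.95e-05).

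Npas2, the CLOCK paralogue that can replace it in the activator pair, was close to absent on chow. Its counts were 6, 12, 1, 1 and 0 in WT chow replicates 1 to 5, or 0.355, 0.650, 0.0995, 0.0950 and 0 CPM. In WT NASH it was at 10.5, 4.45, 1.63, 2.65 and 3.94 CPM, from 18 to 163 counts. The groups did not overlap, as in the 2.90% of all genes given above. The fitted log2 difference was 4.14 (SE 0.719), with an edgeR adjusted p of 0.00206 and an interval of 2 SE from 2.71 to 5.58. Npas2 had at least 10 counts in all 10 NASH libraries and in 3 of the 10 chow libraries, so it entered the test through the groups where it was high. With no filter the value was also 4.14 (edgeR adjusted p = 0.000813). In males alone the call was lost (3.30, edgeR adjusted p = 0.186, 1 WT NASH library). Over flat libraries it was 3.36 (edgeR adjusted p = 0.0319). Clock itself was at 35.5 to 69.9 CPM on chow and 58.9 to 86.2 CPM on the NASH diet, a log2 difference of 0.42 (SE 0.206, edgeR adjusted p = 0.234).

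Of the repressors, Per3 had the value farthest from 0. It was at 6.16, 6.55, 3.88, 1.90 and 3.95 CPM in WT chow replicates 1 to 5 and at 0.387, 2.43, 2.66, 0 and 0.904 CPM in WT NASH. Only WT chow replicate 4 lay inside the range of the NASH livers. The fitted log2 difference was -1.75 (SE 0.550), with an edgeR adjusted p of 0.0633 and an interval of 2 SE from -2.85 to -0.65, and did not pass the threshold. It did pass over flat libraries (-1.97, edgeR adjusted p = 0.0376), with sex and the slope as terms (-2.78, edgeR adjusted p = 0.0124), with the replicate number as a block (-1.93, edgeR adjusted p = 0.0371) and without WT NASH replicate 3 (-2.17, edgeR adjusted p = 0.0463) or replicate 4 (-1.49, edgeR adjusted p = 0.0483). Per2, which is induced both by the activator pair and by glucocorticoids, was at 22.7, 25.8, 23.2, 20.3 and 20.4 CPM on chow, the smallest spread for its mean of the 10 genes in that group. On the NASH diet it was at 10.5, 26.2, 24.6, 7.50 and 17.6 CPM, so that 2 of the 5 livers were at or under 10.5 CPM. Its log2 fold change of -0.38 (SE 0.336) was within 2 SE of 0. The other repressors Per1 (0.18, SE 0.455), Cry1 (0.08, SE 0.270) and Cry2 (-0.25, SE 0.299) also lay within 2 SE of 0. Cry2, which was at 38.9 and 40.1 CPM in the flat WT chow libraries and 18.0 to 20.5 CPM in the steep ones, was called lower over flat libraries (-0.59, edgeR adjusted p = 0.0216).

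Nr1d1, the repressor of Arntl, was at 73.2, 63.3, 21.0, 18.1 and 8.66 CPM in WT chow replicates 1 to 5. It was at 59.5, 109, 87.3, 55.5 and 79.0 CPM in WT NASH. This gave a value of 1.08 on the log2 scale (SE 0.433, edgeR adjusted p = 0.146). The 3 steep WT chow livers lay below every NASH liver, while the 2 flat ones lay inside the NASH range. Over flat libraries the value was 0.31 (edgeR adjusted p = 0.441). With the slope as a term it was 0.98 and called (edgeR adjusted p = 0.0177), and with sex and the slope 0.93 and not called (edgeR adjusted p = 0.0846). It was also called with limma voom (1.97, adjusted p = 0.000175) and without WT chow replicate 1 (1.49, edgeR adjusted p = 0.0409). Part of the exons of Nr1d1 (263 bases, 8.55%) overlaps Thra on the opposite strand, and the sources used here do not say whether counting used the strand. Thra itself was at 6.52 CPM on chow and 8.99 CPM on the NASH diet in WT, at 6.70 and 11.4 CPM in KO, and was called in no comparison. In KO every NASH liver lay above every chow liver in Thra (0.76, edgeR adjusted p = 0.189), as also in Nr1d1 and in 4.19% of all genes. The part of Thra reads in the Nr1d1 values was not tested. Cry2 shares 4.67% of its exons with D930015M05Rik and Arntl 0.439% with Gm45355. Nr1d2 was at 73.6 to 154 CPM and 49.5 to 120 CPM, a log2 difference of -0.37 (SE 0.241, edgeR adjusted p = 0.370).

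**Figure D2:**
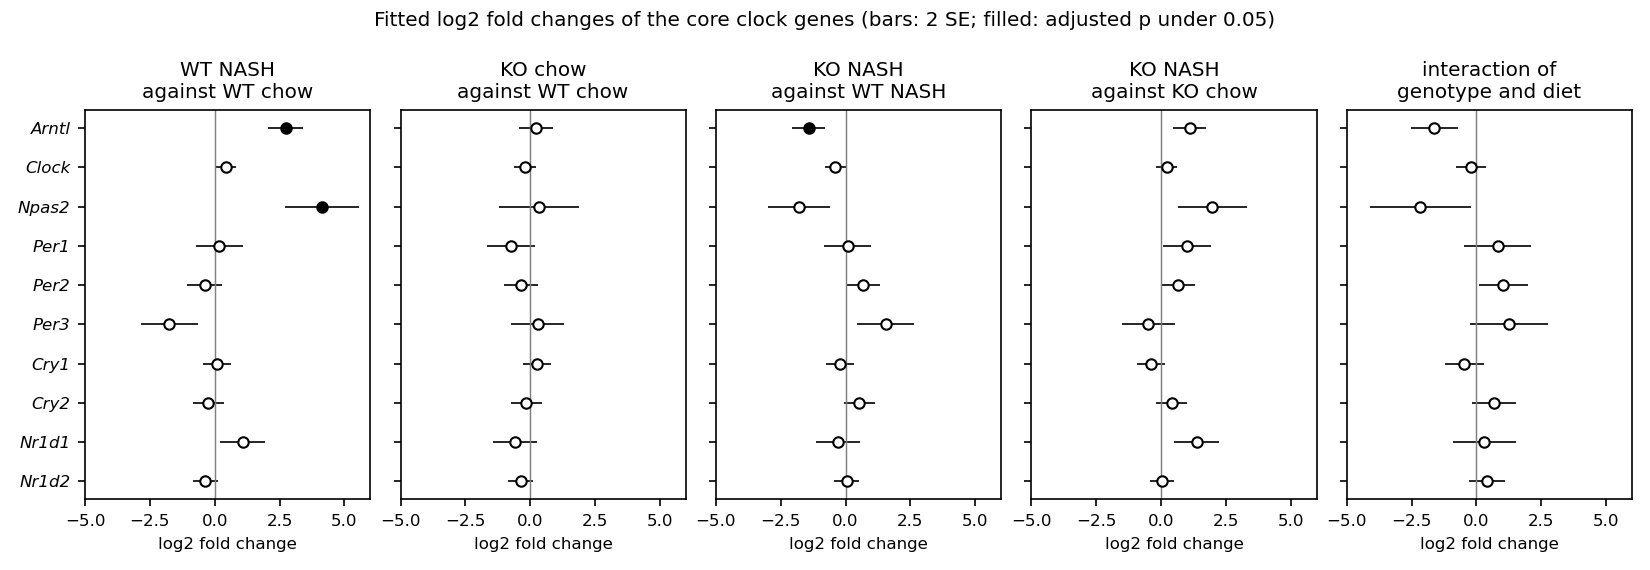
Fitted log2 fold change of each core clock gene in the 4 comparisons and the interaction; bars are 2 SE and filled points have an edgeR adjusted p under 0.05. The 3 filled points are Arntl and Npas2 in WT NASH against WT chow and Arntl in KO NASH against WT NASH.

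The genotypes were compared on chow to ask what Pck1 loss did to the clock on an ordinary diet. None of the 10 core clock genes was called higher or lower by edgeR, against 3.03% and 2.49% of all genes tested. No core clock gene had an unadjusted p under 0.05, which 19.4% of all genes had, and none was called by DESeq2 (9.62% of all genes) or limma voom with quality weights (40.4% of all genes). In every one of the 10 genes the groups overlapped, whereas 2.26% of all genes were higher and 2.65% lower with no overlap. Arntl was at 2.83, 4.02, 3.91, 4.14 and 2.07 CPM in KO chow replicates 1 to 5, inside the range of WT chow. Its log2 fold change of 0.21 had an interval of 2 SE from -0.45 to 0.86. Npas2 was again near 0, at 0.510, 0.603, 0.248, 0.0726 and 0.182 CPM. The intervals of 2 SE were widest for Npas2 (-1.18 to 1.91), Per1 (-1.65 to 0.18), Per3 (-0.74 to 1.31) and Nr1d1 (-1.44 to 0.28), and narrowest for Clock (-0.61 to 0.21) and Nr1d2 (-0.84 to 0.12).

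Nr1d1 and Per1 depended on which libraries were used in that comparison. Nr1d1 was at 36.5, 28.1, 31.5, 12.7 and 14.2 CPM in KO chow replicates 1 to 5, and its 3 flat KO livers (28.1 to 36.5 CPM) all lay below the 2 flat WT livers (63.3 and 73.2 CPM). Over flat libraries Nr1d1 was lower in KO (-1.08, edgeR adjusted p = 0.0148), which rests on 2 WT livers. Per1, which was at 19.2 to 21.7 CPM in the flat KO livers and at 38.2 and 55.6 CPM in the flat WT livers, was called lower with the slope as a term (-0.96, edgeR adjusted p = 0.0146). With all libraries it was at -0.74 (SE 0.458, edgeR adjusted p = 0.403). Cry2 was called lower with sex and the slope as terms (-0.52, edgeR adjusted p = 0.0206). The median log2 fold change of the 10 genes with all libraries was -0.17 and that of all genes 0.00.

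The same question was then asked of KO and WT livers on the NASH diet. Arntl fell by 1.42 on the log2 scale, a fitted 0.373 of the WT level. Of the 10 core clock genes it was the 1 called by edgeR, while 4.90% of all genes were called higher and 4.74% lower, so that 1 of 10 is near the background. Npas2 was lower and Per3 higher in KO by more than 2 SE, but neither passed the threshold. The median log2 fold change of the 10 genes was -0.08 and that of all genes 0.00. Each group of livers serves 2 of the 4 comparisons, so their values are not independent, and the WT NASH livers are those of the diet comparison above.

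Arntl was at 8.36, 5.56, 5.46, 5.70 and 11.5 CPM in KO NASH replicates 1 to 5, all below the lowest WT NASH liver (12.8 CPM), as in 6.44% of all genes. The fitted log2 difference was -1.42 (SE 0.316), with an edgeR adjusted p of 0.0088 and an interval of 2 SE from -2.05 to -0.79. It was -1.29 over flat libraries (edgeR adjusted p = 0.00448), -1.76 in males alone (1 WT NASH library, a steep one) and -1.89 with sex and the slope as terms (edgeR adjusted p = 0.000863). The KO NASH female, at 5.56 CPM, lay within the range of the 4 males, 5.46 to 11.5 CPM. The flat WT NASH livers were all female, so the fit over flat libraries can hardly tell genotype from sex.

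Npas2 was at 1.96, 0.641, 0.745, 0.671 and 2.63 CPM in KO NASH, so that replicates 1 and 5, the highest for Arntl, were also the highest for Npas2 and overlapped the lower WT NASH livers. The fitted log2 difference was -1.80, with an SE of 0.601 and an edgeR adjusted p of 0.0614. It was called over flat libraries (-1.95, edgeR adjusted p = 0.0184) and in 6 of the other 11 alternative fits that gave a value. Over all of these it ranged from -2.88 to -0.78. Clock (-0.40, SE 0.206) was at 45.6 to 59.5 CPM in KO and 58.9 to 86.2 CPM in WT.

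Per3 was at 2.73, 3.93, 4.28, 5.13 and 3.49 CPM in KO NASH, just above the highest WT NASH liver (2.66 CPM), with no overlap, as in 7.67% of all genes. The fitted log2 difference was 1.54, with an SE of 0.546 and an edgeR adjusted p of 0.0785, and over flat libraries 1.28 (edgeR adjusted p = 0.0464). Per2 was at 18.7, 31.9, 30.1, 37.4 and 20.4 CPM, a log2 difference of 0.67 (SE 0.336, edgeR adjusted p = 0.213). Its lower values were in replicates 1 and 5, where Arntl and Npas2 were highest. Cry2 (0.52, SE 0.299), Cry1 (-0.21, SE 0.269) and Per1 (0.08, SE 0.454) were within 2 SE of 0, and Cry2 was called over flat libraries (0.34, edgeR adjusted p = 0.0361). The nuclear receptors Nr1d1 (-0.29, SE 0.428) and Nr1d2 (0.05, SE 0.240) were also within 2 SE of 0.

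The diet was then examined within the knockout, KO NASH against KO chow. No core clock gene was called by edgeR, against 1.77% of all genes higher and 1.52% lower. Of the 10 genes, 4 had an unadjusted p under 0.05 (Arntl, Npas2, Per1 and Nr1d1), as did 22.2% of all genes. DESeq2 called 3 (Arntl, Npas2 and Nr1d1; 9.02% of all genes) and limma voom called 3 (Arntl, Cry1 and Nr1d1; 12.7% of all genes). In 3 genes, Arntl, Npas2 and Nr1d1, every KO NASH liver lay above every KO chow liver, which held for 4.19% of all genes, and in none did every liver lie below, which held for 4.31%. The median log2 fold change of the 10 genes was 0.53 and that of all genes -0.02.

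For Arntl the KO NASH livers (5.46 to 11.5 CPM) stood above the KO chow livers (2.07 to 4.14 CPM), a log2 difference of 1.11 (SE 0.321, edgeR adjusted p = 0.0609). The value lay between 0.80 and 1.14 in all 13 alternative fits and was called in 2 of them. Npas2 had 1.98 (SE 0.666, edgeR adjusted p = 0.1), from 12 to 58 counts on the NASH diet and 1 to 15 on chow. Nr1d1 was at 52.9, 68.3, 55.8, 75.4 and 67.3 CPM in KO NASH, a range of 52.9 to 75.4 CPM above the 12.7 to 36.5 CPM of KO chow. Its log2 difference was 1.38 (SE 0.436, edgeR adjusted p = 0.0845). Over flat libraries, where the chow livers were at 28.1 to 36.5 CPM, it was 1.00 and called (edgeR adjusted p = 0.00826). Per3, which was at 3.05 to 10.3 CPM on chow and 2.73 to 5.13 CPM on the NASH diet, had -0.49 (SE 0.512), an interval of 2 SE from -1.52 to 0.53. Per1 (1.00, SE 0.459) and Per2 (0.65, SE 0.335) were higher on the NASH diet without passing the threshold, and Nr1d2 was at 0.04 (SE 0.240).

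Whether the response to the diet differed between genotypes was tested as the interaction, the diet effect in KO less that in WT. No core clock gene was called by edgeR, with 0.0554% of all genes called higher and 0.0831% lower. Arntl (-1.63), Npas2 (-2.17) and Per2 (1.03) had an unadjusted p under 0.05, as did 8.25% of all genes. The median of the 10 genes was 0.35 and that of all genes -0.03. DESeq2 and limma voom each called Arntl alone, with 1.31% and 13.5% of all genes called. For Arntl the interaction had an SE of 0.454 and an edgeR adjusted p of 0.171, with an interval of 2 SE from -2.53 to -0.72. It was -1.72 and called with the slope as a term (edgeR adjusted p = 0.0472), -2.22 and called with sex and the slope as terms (edgeR adjusted p = 0.0345), and -1.04 over flat libraries (edgeR adjusted p = 0.357). For Per3 the interaction was 1.25 (SE 0.746, edgeR adjusted p = 0.723), so the smaller diet difference of Per3 in KO was not shown to differ from that in WT.

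**Figure D3:**
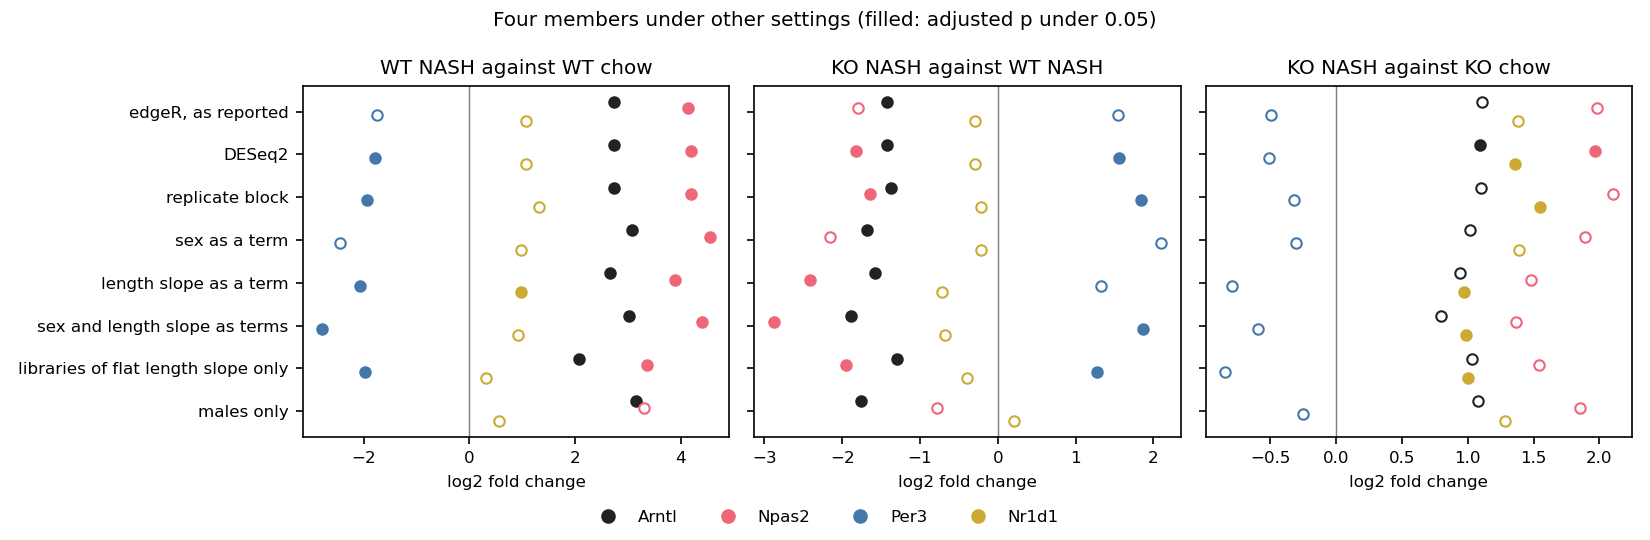
Log2 fold change of Arntl, Npas2, Per3 and Nr1d1 in 3 comparisons under the reported fit and 7 other settings, 1 row per setting; filled points have an adjusted p under 0.05. Arntl stays filled in every setting of the left and middle panels, from 2.07 to 3.16 and from -1.89 to -1.29, while Nr1d1 in WT NASH against WT chow moves from 1.08 to 0.31 when only flat libraries are used; males alone gave no value for Per3 in the left and middle panels.

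Further genes of the clock were taken as a list of 16 (paralogues, receptors, kinases, ubiquitin ligases and modifiers), of which 15 were tested. In WT NASH against WT chow 1 rose and 3 fell by edgeR, where 2.69% of all genes rose and 3.24% fell, with a median log2 fold change of -0.04 against 0.01 over all genes. Bhlhe40 (DEC1), a repressor that binds E-boxes, rose from 30.2 to 102 CPM (1.76, edgeR adjusted p = 0.00701). Its paralogue Bhlhe41 (DEC2) fell from 8.17 to 0.838 CPM (-3.32, edgeR adjusted p = 0.000641). Usp2, a deubiquitinase of clock proteins, fell from 27.2 to 9.37 CPM (-1.52, edgeR adjusted p = 0.0297). In none of these 3 genes did the groups overlap, whereas 2.90% of all genes were higher and 3.25% lower with no overlap.

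In KO NASH against WT NASH 4 of these 15 genes rose and 1 fell, where 4.90% of all genes rose and 4.74% fell. Bhlhe41 (2.16, edgeR adjusted p = 0.00961), Usp2 (1.84, edgeR adjusted p = 0.00819), Ciart, a repressor of the activator pair (1.79, edgeR adjusted p = 0.0221), and Csnk1e, a kinase of PER proteins (1.01, edgeR adjusted p = 0.0162), were higher in KO. Bhlhe40 was lower (-1.40, edgeR adjusted p = 0.019). In KO chow against WT chow only Timeless was called (2.21, edgeR adjusted p = 0.0418), a replication and checkpoint gene, and the groups overlapped. In KO NASH against KO chow none was called by edgeR and 6 had an unadjusted p under 0.05, as did 22.2% of all genes. Bhlhe41 was the 1 gene of the list with an interaction past the threshold (3.38, SE 0.656, edgeR adjusted p = 0.0423): its mean was 8.17 CPM on chow and 0.838 CPM on the NASH diet in WT, and 3.53 CPM and 3.67 CPM in KO.

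The output transcription factors act through D-boxes such as those of the Per3 window. Dbp, a direct target of the activator pair, ranged in WT from 32.4 to 91.8 CPM on chow and from 0.710 to 31.8 CPM on the NASH diet, and in KO from 24.9 to 66.9 CPM on chow and from 45.4 to 84.2 CPM on the NASH diet. It was higher in KO NASH than in WT NASH (1.92, edgeR adjusted p = 0.036), and its value in WT NASH against WT chow was -1.86 with no overlap (edgeR adjusted p = 0.0538). Nfil3 (E4BP4), the repressor at D-boxes, rose in WT NASH against WT chow from 17.0 to 35.1 CPM (1.05, edgeR adjusted p = 0.0407). Tef was at -0.92 in that comparison (edgeR adjusted p = 0.0767), and Hlf was called in none.

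Of 5 liver genes known to be under clock control, 2 fell and 1 rose in WT NASH against WT chow, beside the 3.24% and 2.69% of all genes given above. The cell cycle kinase gene Wee1 fell from 10.7 to 2.16 CPM (-2.30, edgeR adjusted p = 0.00217) and Alas1, which starts haem synthesis, from 846 to 298 CPM (-1.51, edgeR adjusted p = 0.0207). Cdkn1a, the p21 inhibitor of the cell cycle, rose from 2.03 to 30.1 CPM (3.92, edgeR adjusted p = 0.00111). Wee1 was higher in KO NASH than in WT NASH (2.36, edgeR adjusted p = 0.00134), and Cdkn1a was higher in KO NASH than in KO chow (2.23, edgeR adjusted p = 0.0404). Nampt and Por were called in no comparison.

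Genes that respond to inputs of the clock were read beside it. The 4 glucocorticoid-responsive genes (Fkbp5, Tsc22d3, Sgk1 and Zbtb16) summed on chow to 74.1 to 168 CPM in WT and 36.1 to 101 CPM in KO, and on the NASH diet to 201 to 389 CPM in WT and 65.5 to 218 CPM in KO. Tsc22d3 (GILZ) rose in WT NASH against WT chow (1.51, edgeR adjusted p = 0.00717), was lower in KO on chow (-1.43, edgeR adjusted p = 0.0116) and on the NASH diet (-1.63, edgeR adjusted p = 0.00302), and rose in KO NASH against KO chow (1.31, edgeR adjusted p = 0.0301). Zbtb16 was lower in KO chow than in WT chow (-2.72, edgeR adjusted p = 0.00648) and rose in KO NASH against KO chow (3.38, edgeR adjusted p = 0.00468). Neither Fkbp5 nor Sgk1 was called in any comparison. Sgk1 was at 0.02 in WT NASH against WT chow, and in KO against WT at 0.30 on chow and 0.54 on the NASH diet. The mean of Tsc22d3 was highest in WT NASH, where those of Arntl and Npas2 were also highest, and the part of these genes in the clock values was not tested. Of the 3 heat shock genes tested, Hsph1 was lower in KO on chow (-0.82, edgeR adjusted p = 0.0442) and on the NASH diet (-0.82, edgeR adjusted p = 0.0335). Of the immediate-early genes, Jun was higher in KO NASH than in WT NASH (1.14, edgeR adjusted p = 0.0236), and Fos, Egr1, Junb and Ier2 were called in no comparison.

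Some markers of other cells differed between groups. In WT NASH against WT chow 1 of 5 macrophage markers (Cd68, 1.01) and 1 of 5 lymphocyte markers (Cd3e, 2.15) were called higher, as were 2.69% of all genes. Of 5 red blood cell markers 2 (Hbb-bs, -2.31, and Hbb-bt, -2.16) were called lower, as were 3.24% of all genes. No hepatocyte, stellate, endothelial or cholangiocyte marker was called. The other macrophage markers Clec4f (-0.06), Vsig4 (0.11), Cd5l (-0.20) and Adgre1 (-0.21) were not called. Nor were the lymphocyte markers Cd79a (-0.17), Cd79b (-0.51), Ms4a1 (0.42) and Cd3d (-0.11). In KO chow against WT chow Serpina1c (-1.63) and Cd68 (1.03) were called, where 3.03% of all genes were called higher and 2.49% lower. In KO NASH against KO chow the stellate Col1a1 (2.26), the cholangiocyte Sox9 (1.83), Hbb-bs (-2.57) and Hbb-bt were called. There 1.77% of all genes were called higher and 1.52% lower. The other stellate markers Lrat (0.13), Reln (0.54), Des (0.49) and Dcn (-0.57) were not called. In KO NASH against WT NASH the called markers were Serpina1c (-1.14), a hepatocyte gene, the endothelial Kdr (0.66), the pancreatic Cela1 (-3.16) and the adipose Cfd. In that comparison 4.90% of all genes were called higher and 4.74% lower. Summed adipose markers were at 0.452 to 0.969 CPM in WT NASH, with Lep and Retn at 0 counts, and at 3.59 to 54.5 CPM in KO NASH, with Lep at 0 counts. Cfd, with a mean of 16.3 CPM, made up most of the sum in KO NASH, where Retn had a mean of 0.0717 CPM. Adipoq and Plin1 had means of 0.394 and 0.259 CPM in WT NASH and lower ones, 0.0703 and 0.0256 CPM, in KO NASH. Summed pancreas markers were at 11.7 to 107 CPM in WT NASH, with Prss1, Cpa1 and Pnlip at 0 counts, and at 3.41 to 4.45 CPM in KO NASH, with Prss1 at 0 counts. Cela1, with means of 33.5 and 3.72 CPM, made up nearly all of these sums. No other pancreas marker had a mean above 0.0691 CPM in either group. The part of these cells in the clock values was not tested.

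How the clock genes varied together among livers of 1 group was examined last. For each of the 20 libraries the log2 CPM of a gene was taken as its deviation from the group mean, and each of the other 9 genes was correlated with Arntl. Pearson's r was 0.67 for Npas2 (permutation p = 0.0064, adjusted over the 9 relations 0.03; Spearman's rho = 0.63, adjusted permutation p = 0.044). For Cry1 r was 0.63 (permutation p = 0.0066, adjusted 0.03; rho = 0.59, adjusted permutation p = 0.044), and for Clock 0.56 (adjusted permutation p = 0.072; rho = 0.61). Per1 (0.47), Nr1d1 (0.42), Cry2 (0.19), Nr1d2 (0.12), Per3 (-0.31) and Per2 (-0.35) did not pass the threshold, with rho of 0.53, 0.25, 0.23, 0.07, -0.25 and -0.37. Without the 2 libraries farthest from the median of Arntl, WT chow replicate 1 and KO NASH replicate 5, r for Cry1 was 0.69 (adjusted permutation p = 0.046; rho = 0.60, adjusted permutation p = 0.2) and r for Npas2 was 0.59 (adjusted permutation p = 0.14). The call for Npas2 was lost there while r was nearly as large. Leaving out 1 library also lost it in several fits. Among these were the fits without WT chow replicate 5 (r = 0.59, adjusted permutation p = 0.099), WT NASH replicate 1 (0.63, 0.087) and KO NASH replicate 5 (0.63, 0.084). The call for Cry1 was lost in several such fits too. Among these were the fits without WT NASH replicate 1 (r = 0.57, adjusted permutation p = 0.087) and KO chow replicate 5 (0.56, 0.065). In other fits of this kind both genes passed. With KO NASH replicates 1 and 5 averaged into 1 sample, r was 0.65 for both Npas2 (adjusted permutation p = 0.056) and Cry1 (0.053), and neither passed.

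Other values were found when libraries were restricted or adjusted, and the differences between these values were not tested. Over the 14 flat libraries, r with Arntl was -0.88 for Per2 (permutation p = 0.0037, adjusted 0.017; rho = -0.86), -0.80 for Nr1d2 (adjusted permutation p = 0.011; rho = -0.71, adjusted permutation p = 0.068), -0.67 for Per3 (adjusted permutation p = 0.036; rho = -0.75) and 0.76 for Npas2 (adjusted permutation p = 0.036; rho = 0.78). Livers with more Arntl than their group's mean thus had more Npas2 and less Per2 and Per3 among these libraries, by r and by rho. They also had less Nr1d2, which passed by r and, at rho = -0.71, did not pass by rho. With KO NASH replicates 1 and 5 averaged, r was -0.91 for Per2 (adjusted permutation p = 0.026), -0.73 for Per3 (adjusted permutation p = 0.031; rho = -0.77, adjusted permutation p = 0.09), -0.82 for Nr1d2 (adjusted permutation p = 0.011) and 0.72 for Npas2, which did not pass (adjusted permutation p = 0.074). The rho of Nr1d2 with this averaging was -0.81 (adjusted permutation p = 0.029). Without averaging, over the 14 flat libraries, r was 0.67 for Cry1 (adjusted permutation p = 0.083) and -0.52 for Nr1d1 (adjusted permutation p = 0.18). Over all 20 libraries with sex and the slope regressed out, the relation passed for Per2 (-0.79, adjusted permutation p = 0.0031) and Per3 (-0.64, adjusted permutation p = 0.04) and not for Npas2 (0.55, adjusted permutation p = 0.072). In 12 males of the other groups, without the single WT NASH male, none of the 9 relations passed after adjustment, and the values ranged from -0.29 for Per2 to 0.74 for Per1. The 6 steep libraries fell into 3 groups and were too few for a value of their own.

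**Figure D4:**
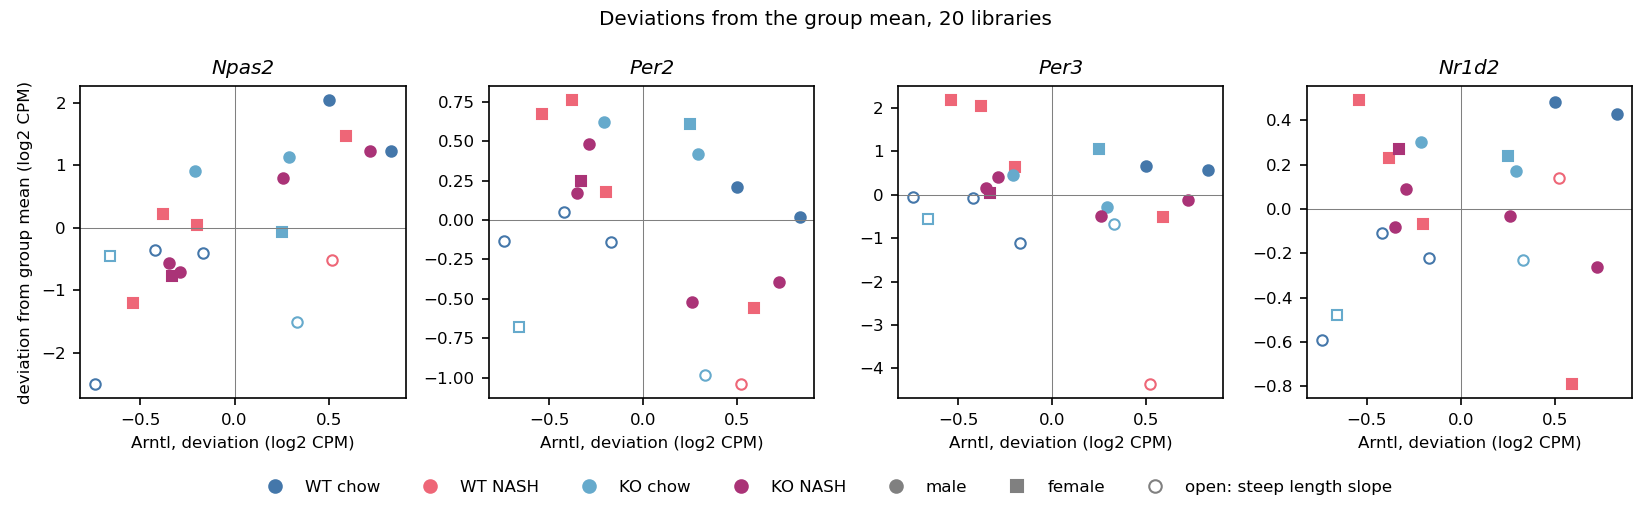
Deviation of Npas2, Per2, Per3 and Nr1d2 from the group mean against that of Arntl, in log2 CPM, for 20 libraries; colours are groups, circles males, squares females, and open symbols libraries with a steep length slope. In the Per2 panel the filled symbols run from upper left to lower right (r = -0.88 over these 14 libraries, with group means taken over them alone), while the open symbol of KO chow replicate 5 lies at the lower left (-0.66 for Arntl, -0.68 for Per2).

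Patterns were compared over 9529 genes that averaged 5 CPM or more. The patterns most like that of Arntl over the 20 libraries were those of Smpd3 (r = 0.78), Zfp281 (0.78), Col1a2 (0.78), Gfpt1 (0.77), Sparc (0.77) and Tab2 (0.77). The least like were L3hypdh (-0.81), Maoa (-0.79), Adck1 (-0.77), Apeh (-0.77), Rassf7 (-0.76) and Ap4m1 (-0.75), predicted genes passed over. These values describe the libraries, which share depth and the length slope, and carry no test. Over flat libraries the 6 highest had r of 0.59 to 0.75. Of the clock genes with that mean, Cry1 ranked 105 from the top and Clock 283.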

How the data were processed

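RNA sequencing libraries were made from the livers of 20 mice, 1 library each. The authors deposited 1 table of whole-number counts per gene symbol, with no normalization. HISAT2 2.0.4 and GRCm38 are named in the submitters' processing notes. The sources used here name no counting program, annotation or use of strand. The table's columns name the diet HFD, matched to the NASH label because the other columns are chow.

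The counts were tested with edgeR 4.0.16 in R 4.3.3 (filterByExpr with a minimum count of 10, TMM, quasi-likelihood F test, 4 groups in 1 fit, Benjamini-Hochberg adjustment over 14440 genes). A gene was called at an adjusted p under 0.05. The SE is the log2 fold change divided by the root of F. The common biological coefficient of variation was 39.0%, which limits precision with 5 mice per group. limma 3.58.1 (voom) and DESeq2 1.42.0 were alternatives, beside other filters and scalings, sex, the length slope, a replicate block and left-out libraries. A library with at least 100 Y-linked counts was read as male. The slope was fitted over 9520 genes, and flat meant -0.2 or above. Correlations used log2 CPM with a prior count of 0.5 and 100000 permutations within groups. The edgeR fit was tested on simulated counts.

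All core clock genes are reported whether called or not, the other lists by their called genes, and the 6 genes most and the 6 least like Arntl. The genes and lists were chosen with earlier results of these data known. The use of flat libraries alone in the fits was chosen after seeing the data. In the list of further clock genes, 1 called gene is counted but not reported here.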

Additional observations from a re-analysis of the deposited data

Results flagged for a closer look

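Of 40 groups of 5 libraries (10 genes in 4 groups), 1 held a library far from the others. Clock in KO NASH replicate 2, the female of that group, was the lowest at 45.6 CPM, while the other 4 libraries were at 56.3 to 59.5 CPM. Chance gives such a library in about 1 of 20 groups. No core clock gene had an interaction of genotype and diet that edgeR called.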

How the results depend on the processing

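The higher Arntl in WT NASH than in WT chow and the lower Arntl in KO NASH than in WT NASH were called in all 13 alternatives that gave a value and in all 20 fits that left out 1 library. Numbers of core clock genes called moved as follows. WT NASH against WT chow (2 as reported): 3 with DESeq2, 2 to 3 leaving out 1 library, 2 in males (Arntl and Per3, not Npas2), 1 with a mean of at least 5 CPM required, which removes Npas2, 6 with limma voom, 5 with the slope as a term, 4 with sex and the slope, and 4 over flat libraries. KO chow against WT chow (0): 1 with the slope, 2 with sex and the slope, 1 over flat libraries. KO NASH against WT NASH (1): 3 with DESeq2, limma voom or the slope, 2 with only the 2 groups or in males, 4 with sex and the slope or over flat libraries, and 1 to 3 leaving out 1 library, the 3 being without WT NASH replicate 3. KO NASH against KO chow (0): 3 with DESeq2 or limma voom, 1 with only the 2 groups, the slope or flat libraries, 2 with sex and the slope, and 0 to 2 leaving out 1 library, the 2 being without WT chow replicate 5. Interaction (0): 1 with DESeq2, limma voom, the slope, or sex and the slope. Relations with Arntl (2): 1 without the 2 farthest libraries, 0 in males, 0 with KO NASH replicates 1 and 5 as 1 sample, 4 over flat libraries, and 0 to 3 leaving out 1 library.

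The replicate block gave 3 genes in WT NASH against WT chow, 3 in KO NASH against WT NASH and 1 in KO NASH against KO chow. Same-numbered libraries had r of -0.41 to 0.47, 13 of 30 pairs were above 0.1 and 7 of 20 libraries correlated best with their own number. The steep libraries were all numbered 3, 4 or 5, so the number was not independent of the slope. These values do not settle whether same-numbered libraries share more than a number.

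Fold changes that reversed were not called. In WT NASH against WT chow these were Cry2 with limma voom (0.23), Per1 with sex (-0.07), the slope (-0.17), both (-0.44), males (-1.32) and flat libraries (-0.41), and Cry1 with the slope (-0.13) and flat libraries (-0.23). Leaving out 1 library gave -0.02 to 0.64 for Per1 and -0.12 to 0.26 for Cry1. In KO chow against WT chow limma voom gave Clock 0.18, Per1 0.20, Cry2 0.42 and Nr1d1 0.49. Per3 was -0.04 with sex and -0.32 with sex and the slope, Npas2 -0.01 with the slope and -0.13 over flat libraries, and Arntl -0.25 over flat libraries. Leaving out 1 library gave -0.07 to 0.46 for Per3 and -0.25 to 0.06 for Cry2. In KO NASH against WT NASH Per1 was -0.25 with limma voom, -0.32 with the slope, -0.12 with sex and the slope, -0.06 with KO NASH replicates 1 and 5 as 1 sample and -0.13 over flat libraries. Nr1d2 was -0.09 with the slope, -0.11 with sex and the slope and -0.07 in males, and Nr1d1 0.21 in males. Leaving out 1 library gave -0.13 to 0.28 for Per1 and -0.10 to 0.19 for Nr1d2. In KO NASH against KO chow Nr1d2 was -0.12 with limma voom, -0.10 with the slope, -0.11 with sex and the slope, -0.11 in males, -0.16 over flat libraries and -0.09 to 0.12 leaving out 1 library. Interactions with limma voom were -0.45 for Per1, -0.05 for Cry2 and -0.86 for Nr1d1, which was -0.01 with the slope and -0.13 to 0.53 leaving out 1 library. Correlations with Arntl became -0.45 for Cry2 and -0.18 for Nr1d2 with sex and the slope regressed out, 0.12 for Per3 in males, and -0.46 for Cry2, -0.52 for Nr1d1 and -0.80 for Nr1d2 over flat libraries, or -0.54, -0.65 and -0.82 once KO NASH replicates 1 and 5 were also averaged, a choice made after seeing the data. Nr1d2 ran from -0.06 to 0.39 leaving out 1 library. The cause was not tested.

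Of all alternative fold changes, 1514 kept direction and call, 59 gained a call, 1 lost it and 52 reversed. The call lost was Npas2 in WT NASH against WT chow in males. Per3 gave no fold change in males in comparisons with WT NASH, whose 1 male had 0 counts, though it is counted as called there. The interaction was not run with only 2 groups. Npas2 on chow rests on 15 counts or fewer per library, which limits its fold change.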
